A study of Mus musculus with 84 samples.

Results

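The 32 genes described here belong to the folding machinery of the endoplasmic reticulum (ER) and to the unfolded protein response: chaperones and their co-chaperones, enzymes that form disulfide bonds, components of ER-associated degradation and of translocation, the stress sensors with their transcription factors, and genes of the arm that runs through ATF4 and CHOP. They were taken by name from the gene names of the array, with no filter on their values but with earlier results of these data known. They are 32 of 27845 names and 55 of 41174 probes. Male db/db mice (BKS Cg-m+/+ Leprdb/J) lack a working leptin receptor and are obese and diabetic. They were obtained at 8 weeks of age, acclimatised for 1 week and treated by mouth for 18 days. The study's methods give this age, route and duration for the RSG and vehicle mice and do not mention S. The 12 groups of 6 samples, each from 1 mouse, were inguinal adipose tissue (IAT) and liver after rosiglitazone (RSG) or the S compound (S), each at 28, 84 and 280 µmol/kg, and for RSG these doses are 10, 30 and 100 mg/kg. RSG is a thiazolidinedione, an activator of the nuclear receptor PPARγ used as an insulin sensitiser, and S is known here only by its code name. Each treated mouse was read on 2 arrays with exchanged dyes. Its counterpart there was a single pool per tissue, made from 6 db/db mice given vehicle and neither compound and called untreated here, so all groups, the pool included, carry the Leprdb mutation.

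All values are log2 ratios of a treated mouse over that pool, so that 1 stands for a doubling, and a gene is followed by its brightest probe unless another is named. A gene was said to rise or to fall where the mean of a group differed from 0 in the limma fit at an adjusted p under 0.05. The pool is 1 sample, so the spread between untreated mice is in no test against it. In IAT and liver, where whole tissue was extracted, fewer cells of a type and less RNA per cell cannot be told apart. The arrays gave a median signal over background of 3.64 in IAT and 1.80 in liver, and all 55 probes passed the filter on dim signals in both tissues. Markers of adipocytes were above background for 8 of 8 genes in every IAT group, and those of hepatocytes for 8 of 8 in every liver group. Of the treated mice, mouse 5 of IAT RSG 28 stood farthest from its group over all probes (mean correlation with its group 0.279), followed by mouse 2 of liver RSG 280 (0.416) and mouse 2 of IAT RSG 280 (0.537).

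As background, proteins enter the ER through the Sec61 channel, are folded by the Hsp70-type chaperone BiP and by the lectins calnexin and calreticulin, and are joined by disulfide bonds through the protein disulfide isomerases. Proteins that fail are pulled back to the cytosol and degraded. When unfolded proteins collect, the membrane sensors IRE1, PERK and ATF6 start the unfolded protein response: IRE1 splices the Xbp1 mRNA, ATF6 is cut to a transcription factor, and PERK phosphorylates eIF2α, which lowers translation in general but raises that of ATF4. ER stress in liver and fat has been described in obese and diabetic rodents.

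The letters through which this response acts were looked for in the promoters of the members, and 8 stretches are shown because they hold the same letters in front of genes that moved in different ways below. Windows from 250 bases before to 50 after the start of a gene were available for 30 of the 32 members from RefSeq (GRCm38.p6), and both strands were searched. The ER stress response element (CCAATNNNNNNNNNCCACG), the site for which ATF6 and XBP1 are known, was found in 8 of 30 members (26.7%) and in 39 of all 32851 promoters (0.119%). It stood in Calr, Canx, Creld2, Dnajc3, Hsp90b1, Hspa5, Pdia6 and Syvn1. The amino acid response element (TGATGNAA), known for ATF4, was found in 5 of 30 members (16.7%), which were Asns, Atf3, Chac1, Herpud1 and Trib3, and in 1304 of all promoters (3.97%). The element TGACGTGG, known for XBP1, and the PPARγ element AGGTCANAGGTCA were found in 0 of 30 members, and in 0.676% and 0.0396% of all promoters. A match is a description of the letters, not of a bound site. The first 4 stretches show the ER stress response element and the last 4 the amino acid response element, in capitals, read along the strand of the gene.
Hspa5 (chr2:34772015-34772053, + strand): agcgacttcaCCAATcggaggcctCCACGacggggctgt
Canx (chr11:50325790-50325828, - strand): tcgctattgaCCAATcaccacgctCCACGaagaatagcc
Calr (chr8:84847065-84847103, - strand): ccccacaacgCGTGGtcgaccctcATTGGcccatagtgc
Dnajc3 (chr14:118937817-118937855, + strand): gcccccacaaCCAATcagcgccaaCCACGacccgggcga
Asns (chr6:7693215-7693242, - strand): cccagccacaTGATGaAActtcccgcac
Herpud1 (chr8:94386307-94386334, + strand): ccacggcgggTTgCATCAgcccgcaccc
Atf3 (chr1:191183426-191183453, - strand): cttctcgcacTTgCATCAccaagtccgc
Chac1 (chr2:119351039-119351066, + strand): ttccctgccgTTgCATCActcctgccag

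By their brightest probes more members fell than rose in all 12 groups, with the counts closest in IAT S 84, where 7 rose and 8 fell. In IAT treated with RSG, 17, 23 and 23 of the 32 members passed the test at 28, 84 and 280 µmol/kg, against 46.3%, 65% and 66.3% of all probes tested. Of the members 2, 6 and 4 rose, against 27%, 37.9% and 36.5% of all probes, and 15, 17 and 19 fell, against 19.3%, 27.2% and 29.8%. In IAT treated with S, 11, 15 and 25 members passed at the 3 doses, against 47%, 55.1% and 74.1% of all probes. Here 4, 7 and 5 members rose, against 27.9%, 32.7% and 42% of all probes, and 7, 8 and 20 fell, against 19%, 22.3% and 32.1%. The share of members called was thus somewhat above that of all probes with RSG and at S 280 and below it at S 28 and S 84, while a smaller share of members rose and a larger share fell in each of these groups.

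In liver, 15, 18 and 15 members passed with RSG, against 58.5%, 56.5% and 50.9% of all probes. Of them 6, 6 and 4 rose, against 24.8%, 23.9% and 21.4% of all probes, and 9, 12 and 11 fell, against 33.7%, 32.6% and 29.5%. With S in liver, 18, 20 and 22 members passed, against 51.3%, 54.3% and 65.8% of all probes. Of them 4, 5 and 6 rose, against 23%, 23.7% and 27.9% of all probes, and 14, 15 and 16 fell, against 28.3%, 30.6% and 37.9%. By the stricter thresholds of the study (p under 0.001 and a fold of at least 1.3), 8 and 9 members passed in IAT RSG 280 and IAT S 280, against 28.2% and 37.4% of all probes, and 6 and 8 in liver RSG 280 and liver S 280, against 14% and 27.8%. The median of the members was -0.19 in IAT RSG 280, where that of all probes was 0.03, and -0.22 in IAT S 280, where that of all probes was 0.06. It was -0.09 in liver RSG 280 and -0.16 in liver S 280, where those of all probes were -0.03 and -0.05.

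**Figure D1:**
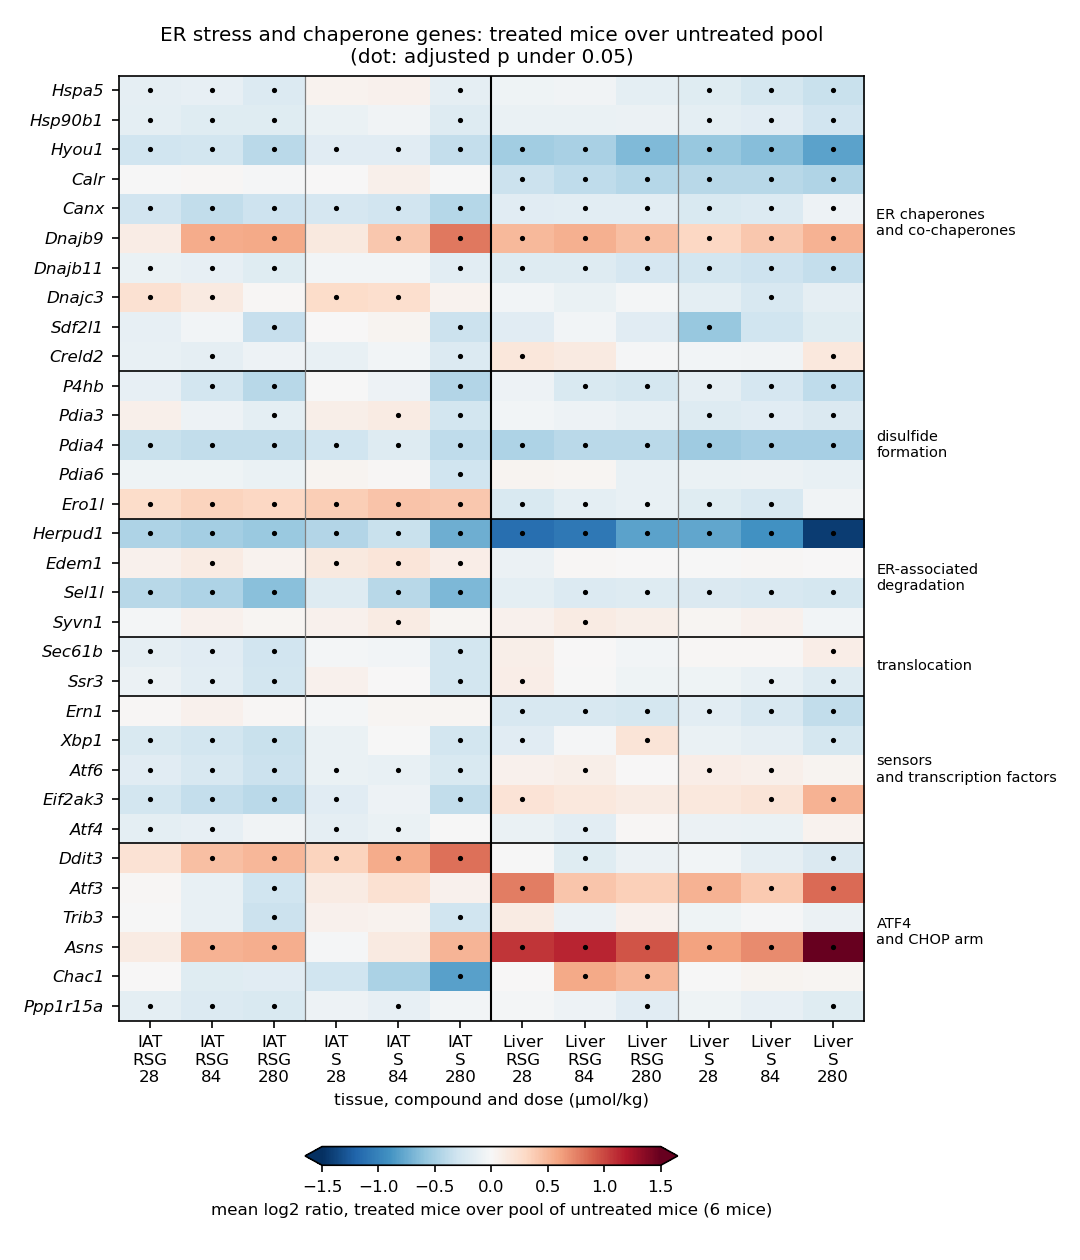
Mean log2 ratio of the 32 members (rows, by role) in the 12 groups of 6 mice (columns), with a dot where the adjusted p was under 0.05. Hyou1, Canx, Pdia4 and Herpud1 carry a dot on a blue field in all 12 groups, while Asns and Dnajb9 are red in every liver group and Ero1l in every IAT group.

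By their brightest probes 4 members, Hyou1, Canx, Pdia4 and Herpud1, fell in all 12 groups. For Canx, another probe was called higher in each of the 6 IAT groups. Pdia4 and Herpud1 have a single probe, and the dim second probe of Hyou1 is given below. In liver, Calr, Dnajb11 and Ern1 fell in all 6 groups too, and Dnajb9 and Asns rose in all 6. In IAT, Atf6 fell and Ero1l rose in all 6. Pdia6, Edem1 and Trib3 passed the test in no liver group, and Calr and Ern1 in no IAT group. Blocked by scanning day, the number of members called fell to 4 in IAT RSG 28, 9 in IAT S 84, 9 in liver RSG 28, 8 in liver RSG 84 and 9 in liver S 28, and the block could not be fitted for IAT S 280, whose mice were scanned on days of their own. Of the 4 members that fell in all 12 groups, Hyou1 then did not pass in IAT RSG 28, IAT S 28, IAT S 84 and liver RSG 84, Canx in IAT RSG 28 and liver S 280, Pdia4 in IAT RSG 28 and IAT S 84, and Herpud1 in IAT S 84. Dnajb9 did not pass in liver RSG 28, RSG 84 and S 28, nor Asns in liver S 28, nor Ero1l in IAT RSG 28.

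Over all comparisons, 57 of the 295 calls of members were lost when some 1 mouse was left out. Against the pool in IAT these were Hspa5 in RSG 28, RSG 84 and S 280, Hsp90b1, Sec61b and Ssr3 in RSG 28, Ppp1r15a in RSG 28 and S 84, Dnajc3 and Creld2 in RSG 84, Edem1 in RSG 84 and S 280, Atf3 in RSG 280, Atf6 in S 28 and S 84, and Pdia3, Syvn1 and Atf4 in S 84. In liver they were Creld2 in RSG 28 and S 280, Xbp1 in RSG 28 and RSG 280, Eif2ak3 in RSG 28 and S 84, Sel1l in RSG 84, RSG 280 and S 28, Atf6 in RSG 84 and S 84, Atf3 in RSG 84 and S 84, Syvn1, Atf4 and Ddit3 in RSG 84, Ero1l and Chac1 in RSG 280, Pdia3 in S 28 and S 84, Hspa5, Dnajb9, P4hb and Ern1 in S 28, and Canx and Sec61b in S 280. Herpud1, Hyou1, Pdia4, Asns and Calr kept each of their calls against the pool whichever mouse was left out.

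In IAT the counts depended on the probe. 14 members have more than 1 probe, and at 280 µmol/kg RSG the probes of Canx, Hsp90b1, Sel1l and Ssr3 were called in opposite directions in IAT and those of no member in liver. For Canx, the brightest probe averaged -0.31 and the other probes 0.20 and 0.14 in IAT, but all 3 fell in liver, with -0.15, -0.17 and -0.20. Calreticulin gave -0.02 by its brightest probe (not called) and 0.66 by the other in IAT. With the median over the probes of a gene, 10 members rose and 16 fell in IAT RSG 280, and 8 rose and 15 fell in IAT S 280. At the lower doses of S the direction of the counts turned, with 9 rising and 4 falling in IAT S 28 and 12 and 4 in IAT S 84. Among the 18 members with a single probe, 2 rose and 12 fell in IAT at 280 µmol/kg of RSG and also of S.

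The same lean was seen over the whole array. Of 7079 genes with more than 1 tested probe in IAT, the brightest probe was lower than the median of the others in 66.7% at RSG 280 (median difference -0.09) and in 69.4% at S 280 (-0.12). Of 5777 such genes in liver, the share over the 6 groups ran from 45.7 to 51.4%. With all IAT probes cut into 5 equal classes by brightness, the brightest class held 21 of the 32 members, and in it 41.5% rose and 33.7% fell in IAT RSG 280. The part of this lean in the IAT values of the members was not tested.

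**Figure D2:**
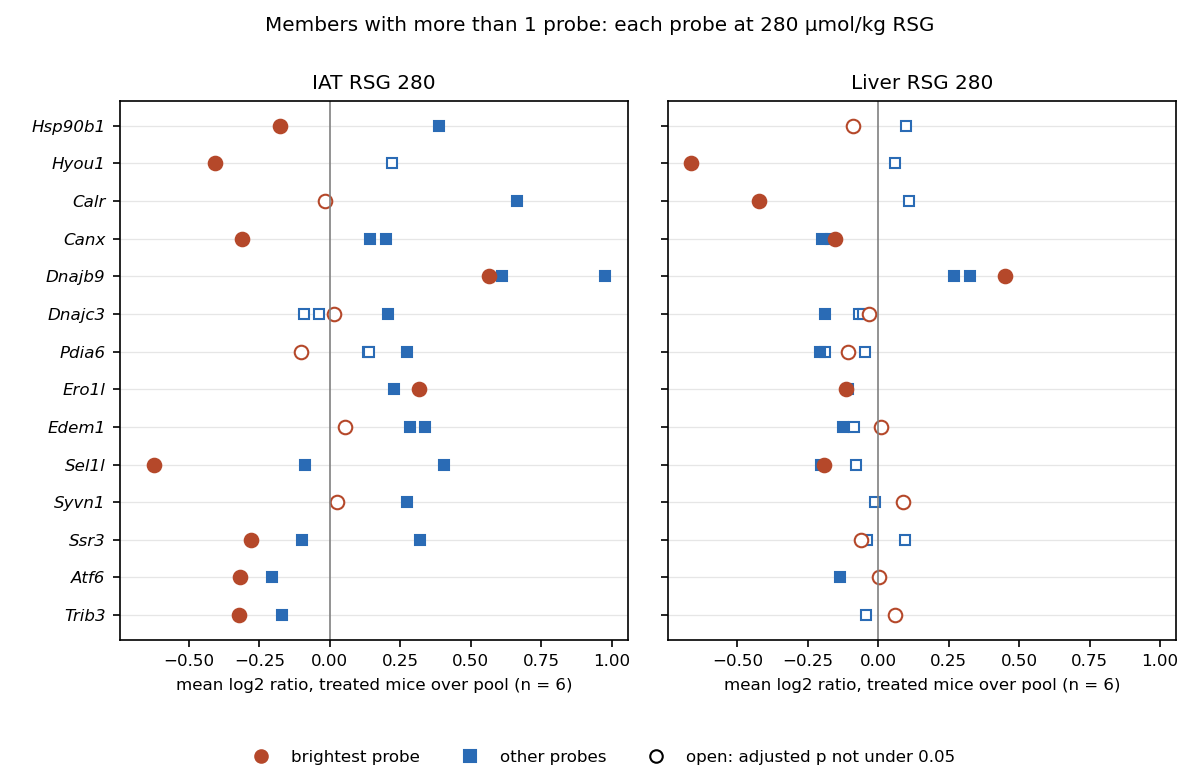
Mean log2 ratio of every probe of the 14 members with more than 1 probe, in IAT RSG 280 (left) and liver RSG 280 (right), n = 6 mice, with the brightest probe as a circle, the others as squares and open marks where the adjusted p was not under 0.05. The squares of Calr, Canx, Hsp90b1 and Hyou1 lie right of their circles in IAT, whereas the marks of Canx lie together in liver.

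Among the 10 chaperones and co-chaperones, by brightest probes, 1 rose and 6 fell in IAT RSG 280, 1 rose and 7 fell in IAT S 280, 1 rose and 4 fell in liver RSG 280, and 2 rose and 6 fell in liver S 280. Of all probes, 36.5% rose and 29.8% fell in IAT RSG 280, and 42% and 32.1% in IAT S 280. In liver these shares were 21.4% and 29.5% for RSG 280, and 27.9% and 37.9% for S 280. In both of these IAT groups the probes of Canx and of Hsp90b1 were called in opposite directions. Hyou1, the exchange factor of BiP, ran from a lowest -0.54 over a median of -0.41 to a highest -0.21 in IAT RSG 280. In liver it ran from -1.29 over -0.58 to -0.31 with RSG 280 and from -0.96 over -0.80 to -0.59 with S 280. Every mouse of these groups lay below the pool, and the lowest of the liver RSG 280 mice was mouse 2. The mean of Hyou1 was -0.41 in IAT RSG 280 (95% confidence interval -0.51 to -0.30, adjusted p 4.5e-08), -0.66 in liver RSG 280 (-0.85 to -0.47, adjusted p 5.6e-07) and -0.80 in liver S 280 (-0.99 to -0.61, adjusted p 5.4e-09). A dimmer probe of Hyou1, above background on 71 of 144 arrays, gave 0.22 in IAT RSG 280 and 0.06 in liver RSG 280, neither called, and -0.66 in liver S 280 (called).

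Dnajb9, which encodes the J-domain partner ERdj4 of BiP, rose in all 6 liver groups and in 4 of the 6 IAT groups. In IAT RSG 280 it ran from 0.14 over 0.60 to 0.87, and in IAT S 280 from 0.49 over 0.85 to 0.97. In liver RSG 280 it ran from -0.23 over 0.54 to 0.73, where mouse 2 alone lay below the pool. The means were 0.57 in IAT RSG 280 (fold 1.48, adjusted p 1.3e-08), 0.79 in IAT S 280 (fold 1.72, adjusted p 7.3e-12), 0.45 in liver RSG 280 (fold 1.37, adjusted p 0.00053) and 0.52 in liver S 280 (fold 1.43, adjusted p 5.5e-05). Its other 2 probes rose in all 4 of these groups, with 0.61 and 0.97 in IAT RSG 280 and 0.32 and 0.27 in liver RSG 280. Without mouse 2 the liver RSG 280 mean was 0.59.

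Hspa5, the gene of BiP, moved little. Its fall in IAT RSG 28 (-0.13) did not pass without mouse 5 (-0.09, adjusted p 0.12). It ran from -0.29 over -0.20 to -0.12 in IAT RSG 280, so that every mouse lay below the pool, and its mean of -0.20 passed the test (adjusted p 0.00031). With RSG 280 in liver it ran from -0.69 over -0.07 to 0.09 (mean -0.14, adjusted p 0.1), and without mouse 2 the mean was -0.03. With S 280 in liver it fell, with -0.34 (adjusted p 0.00012). Hsp90b1, the ER member of the Hsp90 family, fell in IAT by its brightest probe in all RSG groups, with -0.14, -0.18 and -0.18 over the 3 doses, but its other probe gave 0.39 in IAT RSG 280. The RSG 28 call was lost without mouse 5 (-0.11, adjusted p 0.068) or mouse 2 (-0.13, adjusted p 0.054). In liver it fell with S only, with -0.15, -0.17 and -0.28.

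Canx, calnexin, ran from -0.47 over -0.33 to -0.09 in IAT RSG 280 and from -0.21 over -0.17 to -0.08 in liver RSG 280, and every mouse lay below the pool. Its other probes rose in IAT, as given above. The lectin calreticulin differed between the tissues. Calr ran from -0.62 over -0.39 to -0.23 in liver RSG 280, with every mouse below the pool, and fell by a mean of 0.42 (adjusted p 2.3e-06). In IAT RSG 280 it ran from -0.14 over -0.04 to 0.18, on both sides of the pool. Its other probe passed the test in neither of the liver groups at 280 µmol/kg (0.11 with RSG and -0.13 with S). Dnajb11, the partner ERdj3, fell in liver over the 3 doses by 0.20, 0.19 and 0.25 with RSG and by 0.27, 0.31 and 0.36 with S, and in IAT by 0.18 at RSG 280. Dnajc3 (p58IPK) rose at the lower doses in IAT, with 0.22 and 0.14 at RSG 28 and 84 and 0.28 and 0.25 at S 28 and 84, and passed in neither IAT group at 280 µmol/kg. Blocked by scanning day it gave -0.01 at RSG 28 (adjusted p 0.95) and 0.03 at RSG 84 (adjusted p 0.75), and the RSG 84 call was lost without any 1 of mice 1 to 4 (0.10 to 0.14). Sdf2l1, a partner of ERdj3, fell by 0.34 in IAT RSG 280 and by 0.57 in liver S 28. Creld2 fell by 0.21 in IAT S 280 and rose in liver S 280, with 0.16.

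Of the 5 genes of disulfide formation, 1 rose and 3 fell in IAT RSG 280, 1 rose and 4 fell in IAT S 280, and 0 rose and 3 fell in liver at 280 µmol/kg of either compound. These counts stand against the shares of all probes given beside the chaperones. Pdia4 (ERp72) ran from -0.55 over -0.40 to -0.12 in IAT RSG 280 and from -0.59 over -0.42 to -0.17 in liver RSG 280. No mouse of these groups reached the level of the pool. Its means were -0.36 in IAT (adjusted p 3.9e-07) and -0.40 in liver (adjusted p 3.2e-05). P4hb, the protein disulfide isomerase itself, ran from -0.57 over -0.37 to -0.30 in IAT RSG 280 and fell by a mean of 0.41 there and by 0.26 in liver RSG 280. Pdia3 (ERp57) fell in liver with S by 0.19, 0.17 and 0.22 over the 3 doses and in IAT by 0.15 at RSG 280. Pdia6 passed in IAT S 280 only, with -0.30, and there its other probes gave 0.15, -0.01 and 0.09.

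Ero1l, the oxidase that recharges protein disulfide isomerase, rose in IAT over the 3 doses, with 0.28, 0.34 and 0.32 for RSG and 0.37, 0.43 and 0.41 for S. Blocked by scanning day, IAT RSG 28 gave 0.15 and did not pass (adjusted p 0.45). In IAT RSG 280 it ran from 0.16 over 0.37 to 0.40, and every mouse lay above the pool. In liver RSG 280 it ran from -0.21 over -0.12 to -0.03, and every mouse lay below it. It fell in liver by 0.22, 0.15 and 0.11 with RSG and by 0.18 and 0.25 with S at 28 and 84 µmol/kg, and gave -0.05 at S 280 (adjusted p 0.28). Its other probe rose in IAT RSG 280 too (0.23) and gave -0.11 in liver RSG 280 (not called).

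Herpud1 had the largest fall of all members in liver. It encodes HERP, which sits at the ubiquitin ligase of ER-associated degradation. In liver RSG 28 it ran from -1.36 over -1.19 to -0.91, in RSG 84 from -1.49 over -1.02 to -0.83 and in RSG 280 from -1.20 over -0.89 to 0.02. The highest value, of mouse 2, was at the level of the pool, and the other 5 mice of that group were well below it. In liver S 280 it ran from -1.62 over -1.40 to -1.32, so that the 6 mice lay close together. The liver means were -1.14, -1.07 and -0.80 over the doses of RSG and -0.78, -0.91 and -1.42 over those of S, and at S 280 this left 0.373 of the level of the pool (adjusted p 2.5e-14). Without mouse 2 the mean of liver RSG 280 was -0.97.

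In IAT, Herpud1 ran from -0.75 over -0.60 to -0.21 with RSG 280 and from -0.92 over -0.75 to -0.56 with S 280, and its means were -0.46, -0.52 and -0.56 over the doses of RSG and -0.44, -0.34 and -0.73 over those of S. All of the 12 groups passed the test, and Herpud1 has a single probe. Sel1l, the adaptor of the same ligase, ran from -0.81 over -0.65 to -0.36 in IAT RSG 280 and fell by a mean of 0.63, while its other probes gave -0.09 and 0.40. In liver it fell by 0.19 at RSG 280 and by 0.26 at S 280. Syvn1, the ligase Hrd1, rose in IAT S 84 and in liver RSG 84, each with 0.12, and its values in the other groups did not pass, save liver RSG 280 without mouse 2 (0.12, adjusted p 0.038). Edem1, which passes glycoproteins on for degradation, rose in IAT S with 0.15, 0.19 and 0.09 over the doses, and its other probes rose in IAT S 280 as well, with 0.45 and 0.54. Without mouse 5 it passed in IAT RSG 28 too (0.13, adjusted p 0.007).

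The translocation genes Sec61b, a subunit of the channel, and Ssr3, of the complex attached to it, fell in IAT with RSG over the 3 doses, by 0.14, 0.17 and 0.29 and by 0.09, 0.16 and 0.28. At RSG 28 neither passed without mouse 5, where Sec61b gave -0.11 (adjusted p 0.082) and Ssr3 -0.06 (adjusted p 0.099). Both fell by 0.28 at IAT S 280. For Ssr3 the other probes gave -0.10 and 0.32 in IAT RSG 280. In liver, Sec61b gave 0.10 at S 280 (adjusted p 0.047), a call that was lost without any 1 of mice 1 to 4 (0.06 without mouse 1) and whose value was -0.11 on 1 scanning day and 0.20 on the other. Ssr3 rose in liver at RSG 28 (0.10) and fell at S 84 and S 280 by 0.11 and 0.20, while its dimmest probe was called higher at S 280 (0.23).

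Of the 5 sensors and transcription factors, 0 rose and 3 fell in IAT at 280 µmol/kg of either compound, 1 rose and 1 fell in liver RSG 280, and 1 rose and 2 fell in liver S 280. The shares of all probes are those given beside the chaperones. With IAT set against liver, 1 was higher and 3 were lower in IAT for RSG 280, where 60.5% of all probes were called. For S 280 these counts were 1 and 2, where 72.9% of all probes were called. Eif2ak3, the gene of PERK, ran from -0.46 over -0.41 to -0.35 in IAT RSG 280, the tightest group of this gene, and fell by 0.41 (adjusted p 1e-08). In liver S 280 it ran from 0.38 over 0.51 to 0.72 and rose by a mean of 0.52 (fold 1.44, adjusted p 5.7e-07). In liver RSG 280 it ran from -0.23 over 0.19 to 0.38 (mean 0.12, adjusted p 0.19), with mice on both sides of the pool, and the mean was 0.19 without mouse 2 (adjusted p 0.044).

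Ern1, the gene of IRE1α, fell in liver over the 3 doses by 0.23, 0.24 and 0.26 with RSG and by 0.16, 0.24 and 0.37 with S, and in IAT its group means at 280 µmol/kg were 0.02 for RSG and 0.03 for S. Atf6 fell in IAT by 0.17, 0.24 and 0.32 over the doses of RSG and by 0.10, 0.11 and 0.23 over those of S. In liver its brightest probe was called higher at RSG 84 (0.08), S 28 (0.10) and S 84 (0.08), where its other probe was called lower (-0.13, -0.08 and -0.11), so that the direction is not settled there. It gave 0.00 at RSG 280 and 0.04 at S 280, neither called. Its other probe fell in IAT RSG 280 too (-0.21) and gave -0.14 in liver RSG 280, called there. Xbp1 ran from -0.43 over -0.34 to -0.24 in IAT RSG 280 and from 0.00 over 0.14 to 0.55 in liver RSG 280. It fell by 0.33 in IAT and rose in liver by a mean of 0.19 (adjusted p 0.01), which was 0.12 without mouse 1 of the liver group and 0.22 with the scanning day as a block (adjusted p 0.077). With S 280 in liver it fell by 0.26. The array gives the level of Xbp1 mRNA and not its splicing. Atf4 fell in IAT by 0.15 and 0.12 at RSG 28 and 84 and by 0.13 and 0.10 at S 28 and 84, and gave -0.06 and -0.01 at 280 µmol/kg of RSG and S.

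Asns, asparagine synthetase, had the largest rise of all members. In liver RSG 28 it ran from 0.83 over 1.00 to 1.51, in RSG 84 from 0.56 over 1.17 to 1.96 and in RSG 280 from 0.47 over 1.04 to 1.12. In liver S 280 it ran from 1.32 over 1.56 to 2.10. Every one of the 36 liver mice lay above the pool, and the S 280 mice lay above all of the RSG 280 mice. How many of all probes separated these groups in this way is not given here. The liver means were 1.08, 1.15 and 0.95 over the doses of RSG and 0.61, 0.70 and 1.66 over those of S, which at S 280 is 3.15 times the level of the pool (adjusted p 1.6e-13). Blocked by scanning day, liver S 28 gave 0.43 and did not pass (adjusted p 0.25). In IAT, Asns rose by means of 0.52 and 0.54 at RSG 84 and 280 and of 0.51 at S 280.

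Ddit3, the gene of CHOP, rose in IAT and not in liver. In IAT it ran from -0.17 over 0.61 to 0.82 with RSG 280 and from 0.47 over 0.83 to 1.26 with S 280. In liver S 280 it ran from -0.34 over -0.22 to -0.11, with every mouse below the pool. Its means in IAT were 0.21 (not called, but 0.30 and adjusted p 0.023 without mouse 5), 0.45 and 0.50 over the doses of RSG and 0.33, 0.55 and 0.82 over those of S (fold 1.77 at S 280, adjusted p 2.9e-08), and in liver it fell by 0.18 at RSG 84 and by 0.21 at S 280.

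Atf3, a transcription factor of the same arm, was above the pool in liver, with means of 0.77, 0.41 and 0.35 over the doses of RSG and 0.52, 0.40 and 0.85 over those of S. Liver RSG 280 did not pass (adjusted p 0.06) and passed without mouse 2 (0.56, adjusted p 0.0023), and the mean of S 84 was 0.26 without its mouse 4. In IAT RSG 280 it ran from -0.88 over -0.10 to 0.08, and its mean of -0.29 (adjusted p 0.043) was -0.18 without mouse 1 and -0.19 without mouse 2. Chac1, which degrades glutathione, spread widely: it ran from -0.80 over -0.20 to 1.07 in IAT RSG 280, from -1.16 over -0.82 to -0.44 in IAT S 280 and from -0.38 over 0.70 to 0.99 in liver RSG 280. It fell by 0.82 in IAT S 280, where no mouse reached the pool, and rose in liver RSG 84 and 280 with 0.57 and 0.49. Liver RSG 280 did not pass without any 1 of mice 1 to 4 (0.40 to 0.46, adjusted p 0.058 to 0.11) or with the scanning day as a block (0.05, adjusted p 0.89). Trib3, a pseudokinase induced by CHOP, fell in IAT by 0.32 at RSG 280 and by 0.30 at S 280. Ppp1r15a (GADD34, under its older symbol Myd116 on the array), which brings the phosphatase to eIF2α, fell in IAT by 0.15, 0.21 and 0.23 over the doses of RSG, and in liver by 0.17 at RSG 280 and 0.18 at S 280.

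**Figure D3:**
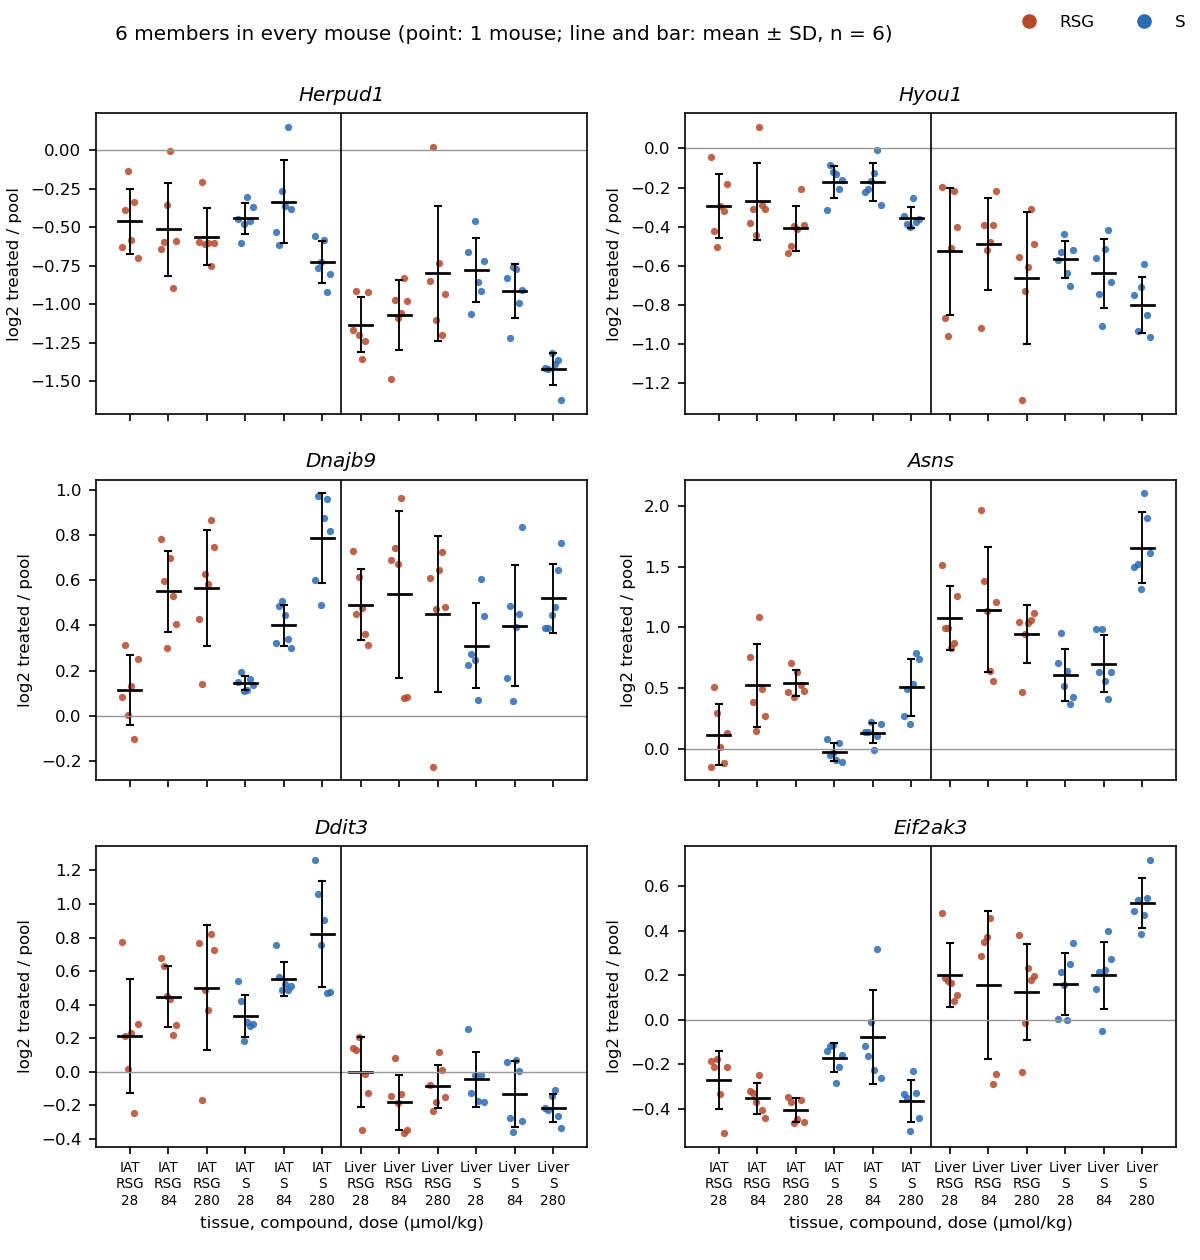
Log2 ratio over the pool in each mouse (points, 6 a group, red for RSG and blue for S) with the mean and SD for Herpud1, Hyou1, Dnajb9, Asns, Ddit3 and Eif2ak3, IAT left and liver right of the line. Ddit3 lies above 0 in most IAT mice and near or below it in liver, Eif2ak3 the other way round, and the liver S 280 mice lie below the RSG 280 mice for Herpud1 and above them for Asns.

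By brightest probes, of the 8 members with the ER stress response element, 0 rose and 3 fell in IAT RSG 280, 0 and 5 in IAT S 280, 0 and 2 in liver RSG 280 and 1 and 4 in liver S 280. The IAT counts depended on the probe. With the median over probes, Calr (0.32), Canx (0.14), Hsp90b1 (0.11) and Pdia6 (0.14) were called higher in IAT RSG 280. In IAT S 280, Calr (0.28) and Canx (0.10) were. Hspa5 and Creld2 have a single probe, and Hspa5 fell in both of these IAT groups and Creld2 in IAT S 280. The 5 with the amino acid response element went both ways, with 1 rising and 3 falling in both IAT groups at 280 µmol/kg, and 2 rising and 1 falling in both liver groups. Over all probes, 36.5% rose and 29.8% fell in IAT RSG 280, 42% and 32.1% in IAT S 280, 21.4% and 29.5% in liver RSG 280 and 27.9% and 37.9% in liver S 280. In liver S 280 these 5 genes ran from -1.42 for Herpud1 to 1.66 for Asns, whose stretches are printed above.

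The dose was asked about by setting 280 against 28 µmol/kg, where the pool cancels. In IAT, 7 members passed with RSG, against 24.9% of all probes, and 18 with S, against 42.7%. Whichever mouse was left out, 6 of the RSG calls and 12 of the S calls were kept. With S, Dnajb9, Asns and Ddit3 were higher at 280 µmol/kg, with differences of 0.64, 0.53 and 0.49, and 15 members were lower, among them Sel1l (-0.49), P4hb (-0.42), Pdia3 (-0.36), Trib3 (-0.36) and Ssr3 (-0.34). With RSG in IAT, Dnajb9 (0.45) and Asns (0.42) were higher and Trib3 (-0.32), P4hb (-0.28), Pdia3 (-0.22), Ssr3 (-0.19) and Atf6 (-0.15) lower. The Atf6 call was lost in 4 of the 12 fits that left out 1 mouse. P4hb values of the groups did not overlap, and the share of all probes without overlap is not given here. Blocked by scanning day, 2 members passed for RSG in IAT, of which Dnajb9 (0.62, adjusted p 0.037) had passed before. Without mouse 5 of IAT RSG 28, 10 members passed.

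In liver, 7 members passed between S 280 and S 28, against 28.5% of all probes. Asns was higher at 280 µmol/kg by 1.05 (adjusted p 2e-05), Eif2ak3 by 0.36 and Canx by 0.16, and Herpud1 (-0.64, adjusted p 0.00053), P4hb (-0.24), Ern1 (-0.21) and Ssr3 (-0.13) were lower. Only the Ern1 call was lost when 1 mouse was left out, in 5 of 12 such fits. The groups did not overlap for Asns, Eif2ak3 and Herpud1. With the scanning day as a block 4 members passed, P4hb, Herpud1 (-0.80) and Asns (1.21) among them. Between RSG 280 and RSG 28 in liver, limma called 0 members and 0.0115% of all probes. Here 6 members had an unadjusted p under 0.05, for which the share of all probes is not given. The nearest was Xbp1, higher at 280 µmol/kg by 0.36 (adjusted p 0.086) with groups that did not overlap. For neither of these dose comparisons is the share of all probes without overlap given here.

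RSG was set against S at the same molar dose in 6 comparisons of 32 members, each adjusted over all probes of its tissue. In IAT, 0, 2 and 0 members passed at 28, 84 and 280 µmol/kg, against 0.00636%, 2.11% and 1.49% of all probes. By an unadjusted p under 0.05 they were 2, 10 and 7, for which the shares of all probes are not given here. The 2 at 84 µmol/kg were Eif2ak3 (-0.28, adjusted p 0.026) and Ssr3 (-0.17, adjusted p 0.03). Neither passed with the scanning day or the slide as a block, and 6 members passed without mouse 4 of IAT RSG 84. At 280 µmol/kg in IAT the interval of RSG minus S was -0.08 to 0.41 for Herpud1, -0.21 to 0.28 for Asns, -0.20 to 0.10 for Hyou1 and -0.62 to -0.02 for Ddit3 (adjusted p 0.22), so that differences of that size are not excluded.

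In liver the compounds differed at the highest dose. At 28 and 84 µmol/kg 0 members passed, against 0.868% and 1.75% of all probes, and at 280 µmol/kg 6 passed, against 27.6%. By an unadjusted p under 0.05 they were 4 and 3 at 28 and 84 µmol/kg, for which the shares of all probes are not given here. Herpud1 was higher with RSG than with S by 0.62 (95% confidence interval 0.34 to 0.90, adjusted p 0.00086), since it had fallen less, and without mouse 2 of liver RSG 280 by 0.46. Xbp1 was higher with RSG by 0.45 (0.27 to 0.63, adjusted p 0.0002), Hsp90b1 by 0.19 and Ssr3 by 0.13. Asns was lower with RSG by 0.71 (-1.06 to -0.36, adjusted p 0.0022) and Eif2ak3 by 0.40 (-0.63 to -0.17, adjusted p 0.0064). The mice of the compounds did not overlap for Herpud1, Asns and Eif2ak3, and the share of all probes without overlap is not given here. With the scanning day as a block 2 members passed, Xbp1 (0.45, adjusted p 0.038) and Syvn1 (0.29, adjusted p 0.048), while Herpud1 gave 0.51 (adjusted p 0.1), Eif2ak3 -0.37 (adjusted p 0.061) and Asns -0.48 (adjusted p 0.26). Without mouse 2 of liver RSG 280 a further member passed, Hspa5 (0.30, adjusted p 0.0084). The dim probe of Hyou1 was higher with RSG by 0.72 (adjusted p 0.027), and its brightest probe was not called (0.14). On the 1 day on which mice of both groups were scanned, with 2 mice of each, all 6 differences had the same sign as over all mice. The mice of that day are part of those means. Dnajb9 was not told apart between the compounds in liver at 280 µmol/kg, with -0.07 and an interval of -0.37 to 0.23.

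**Figure D4:**
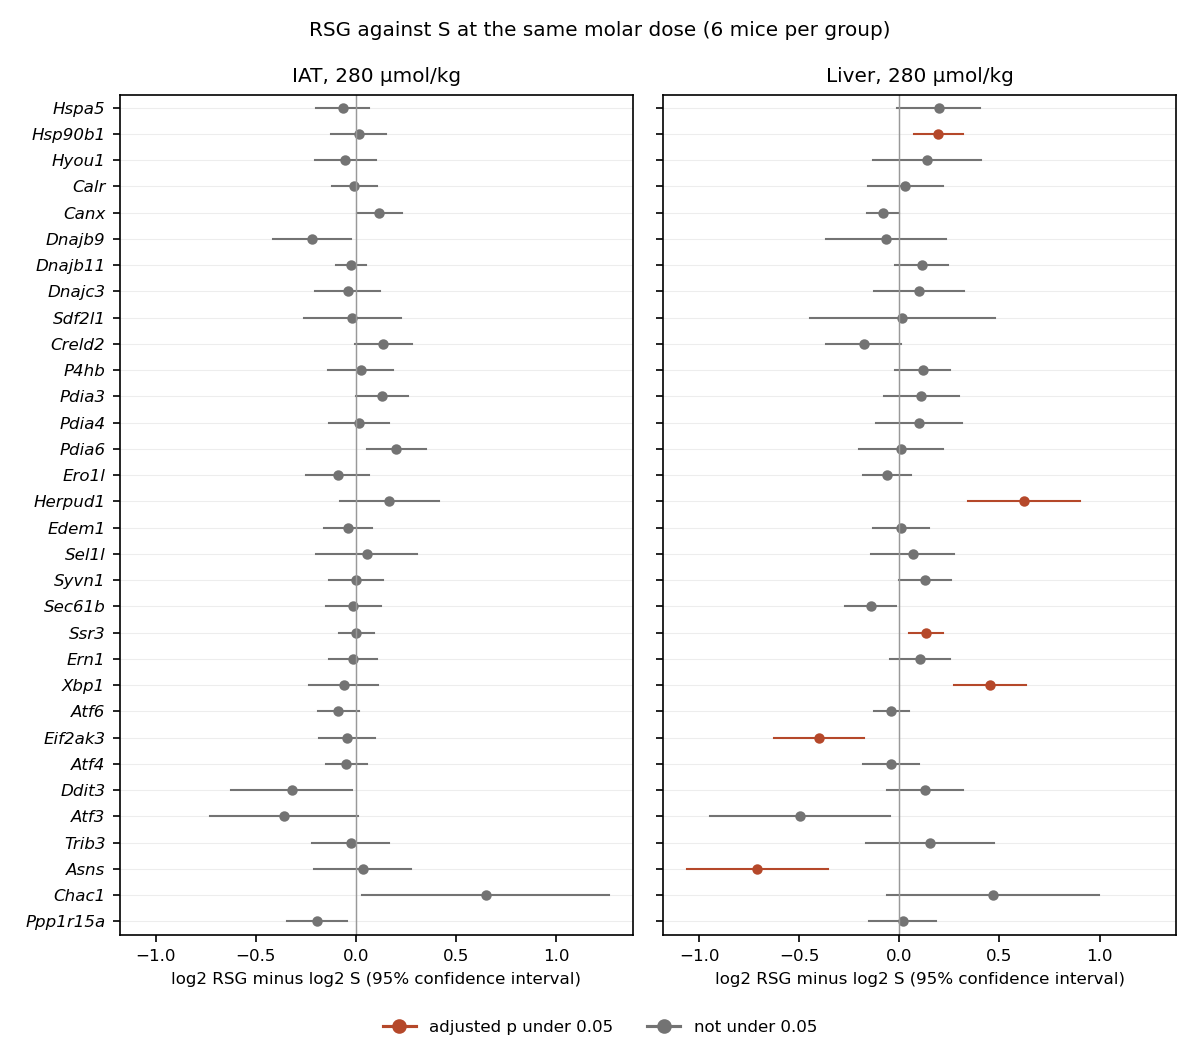
RSG minus S at 280 µmol/kg in log2 units (horizontal axis, point and 95% confidence interval, 6 mice a group) for the 32 members, in IAT (left) and liver (right), red where the adjusted p was under 0.05. The 6 red members, Hsp90b1, Herpud1, Ssr3, Xbp1, Eif2ak3 and Asns, are all in liver.

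The effect at 280 µmol/kg in IAT was then set against that in liver, each relative to the pool of its own tissue. By the study's methods, which describe the RSG mice, both tissues were taken from the same animals, but the labels do not tie a liver to an IAT sample, so the fit treats them as independent. With the sample number as a block across the tissues, all 16 and 17 members called below for RSG and S were kept. With RSG, 16 members passed, against 60.5% of all probes, with 5 higher and 11 lower in IAT. With S, 17 passed, against 72.9%, with 8 higher and 9 lower. Higher in IAT with both compounds were Ddit3, by 0.59 with RSG and 1.04 with S, Ero1l, by 0.43 and 0.46, Calr, by 0.40 and 0.44, Ern1, by 0.28 and 0.40, and Hyou1, by 0.26 and 0.45. The Hyou1 difference with RSG was lost in 5 of the 12 fits that left out 1 mouse. Without mouse 2 of liver RSG 280 it was 0.13 (adjusted p 0.27). Lower in IAT with both were Asns, by 0.41 with RSG and 1.15 with S, Eif2ak3, by 0.53 and 0.89, Atf3, by 0.65 and 0.79, Chac1, by 0.67 and 0.85, Atf6, by 0.32 and 0.27, Sec61b, by 0.25 and 0.38, and by their brightest probes Sel1l and Canx. With the median over probes, Canx was higher in IAT, by 0.31 with RSG and 0.24 with S, and so was Sel1l with S, by 0.34, while with RSG Sel1l gave 0.09 (adjusted p 0.19). Herpud1 was higher in IAT with S by 0.70, and with RSG it passed without mouse 2 of liver RSG 280 (0.40, adjusted p 0.0029). Xbp1 was lower in IAT with RSG by 0.53. With another background correction and dye normalisation, Asns gave -0.02 with RSG (adjusted p 0.89). The Chac1 difference with RSG was lost in 8 of the 12 fits that left out 1 mouse. Without mouse 2 of liver RSG 280 it was -0.63 (adjusted p 0.064). With the scanning day as a block, Chac1 gave -0.13 with RSG (adjusted p 0.82) and Atf3 -0.43 (adjusted p 0.25).

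At 280 µmol/kg RSG the members that passed in opposite directions in both tissues were Ero1l and Xbp1. There 8 members fell in both tissues and 2, Dnajb9 and Asns, rose in both. At 280 µmol/kg S the opposite members were Creld2, Sec61b, Eif2ak3 and Ddit3, while 12 members fell in both and 2 rose in both. The shares of all probes that moved in opposite or in shared directions are not given here. Blocked by scanning day, the liver calls of Ero1l and Xbp1 at RSG 280 and of Creld2, Sec61b and Ddit3 at S 280 did not pass. Ero1l was opposite in all RSG groups and in S 28 and S 84.

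**Figure D5:**
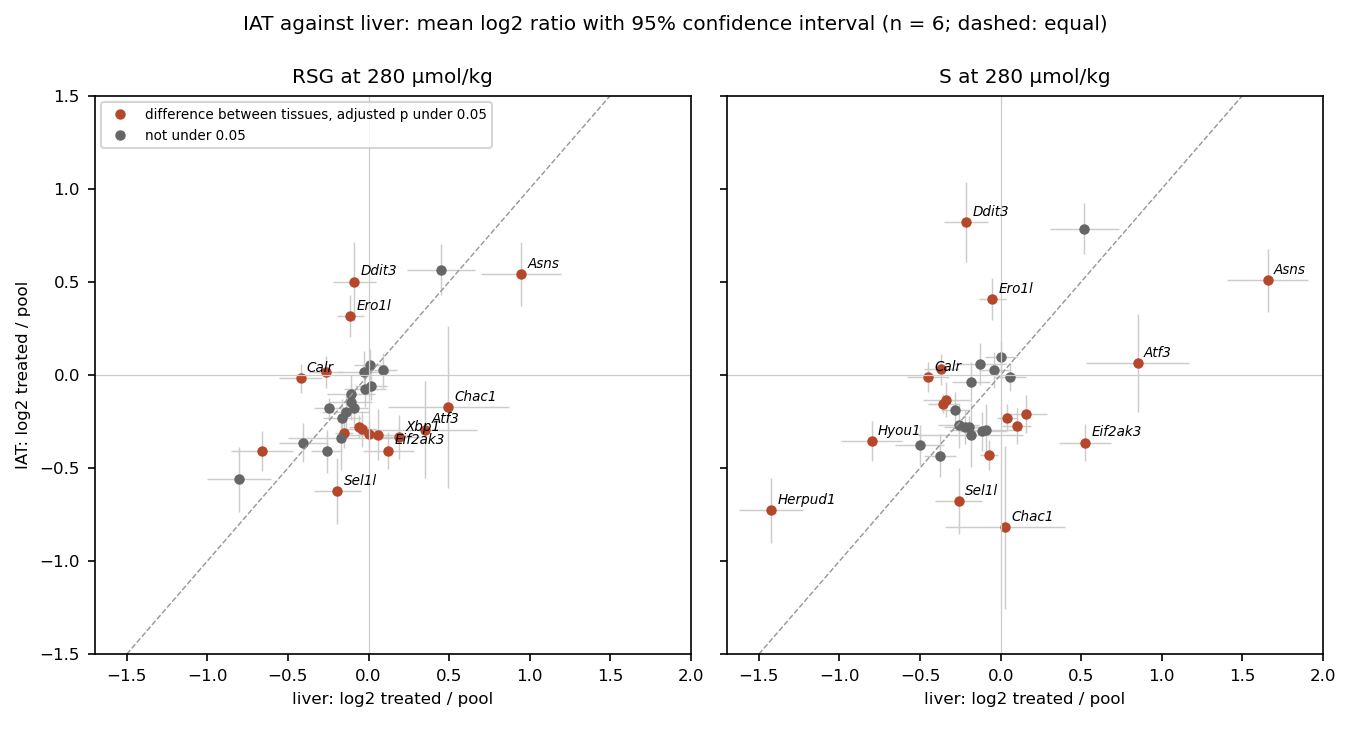
Mean log2 ratio over the pool in IAT (vertical axis) against liver (horizontal axis) for the 32 members at 280 µmol/kg of RSG (left) and S (right), with 95% confidence intervals (n = 6), red where the tissues differed and named where they did so by at least 0.4. Ddit3 and Ero1l lie high on the IAT axis near 0 in liver, and Asns far right, with 1.66 in liver and 0.51 in IAT for S.

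Wider lists of the same pathways were read beside the members, at 280 µmol/kg of RSG and then S. Their counts stand against shares of all probes that rose and fell of 36.5% and 29.8% in IAT RSG 280, 42% and 32.1% in IAT S 280, 21.4% and 29.5% in liver RSG 280, and 27.9% and 37.9% in liver S 280. Of 27 other ER folding partners and oxidoreductases, 3 rose and 15 fell in IAT RSG 280 (median -0.17) and 2 rose and 15 fell in IAT S 280. In liver, 3 rose and 12 fell with RSG (median -0.11) and 5 rose and 15 fell with S. The lowest of these with RSG were the isomerases Pdia5 (-0.55) and Fkbp14 (-0.51) in IAT, and Pdia5 (-0.49) and the second oxidase Ero1lb (-0.46) in liver. Of 25 genes of ER-to-Golgi transport, 1 rose and 14 fell in IAT RSG 280 and 5 rose and 13 fell in liver RSG 280. Kdelr2, the receptor that returns chaperones to the ER, was the lowest of them in both, with -0.61 in IAT and -0.45 in liver.

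Of 22 other ER-associated degradation genes, 10 rose and 5 fell in IAT RSG 280 (median 0.07), led by the shuttle Ubqln1 (1.24) and the channel protein Derl1 (0.71), and the lectins Os9 (-0.49) and Erlec1 (-0.45) were the lowest. In liver RSG 280, 3 rose and 9 fell (median -0.07). Of 30 further targets of the ATF4 pathway tested in IAT, 15 rose and 7 fell with RSG 280 and 19 and 7 with S 280, with Psph of serine synthesis at 1.01 and Nupr1 at -2.37 for RSG. Of 25 tested in liver, 7 rose and 9 fell with RSG 280 and 14 and 7 with S 280. The amino acid carrier Slc1a5 (1.33) was highest and Cth, a cystathionine-cleaving enzyme, lowest (-0.81) in liver RSG 280. Of the chaperones of mitochondria, 10 of 10 rose in IAT with either compound (median 0.65 with RSG and 0.72 with S), Hspd1 with 1.00, and 8 of 10 rose in liver RSG 280 (median 0.19). In IAT RSG 280, 5 rose and 8 fell of 21 further translocation genes, 9 and 5 of 23 genes of N-glycosylation, 8 and 7 of 22 other genes that control the unfolded protein response, and 11 and 5 of 23 cytosolic heat shock genes. In liver RSG 280 these counts were 4 and 7, 4 and 12, 6 and 5 of 21, and 8 and 4. All medians can be set beside those of all probes given above.

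Markers of other cells moved with the groups. In IAT, the summed signal of 5 brown adipocyte markers over the pool ran from 1.94 to 2.95 in RSG 280, and that of 4 fibroblast markers from -1.10 to -0.41, where 4 of 4 fell. Both kinds of marker were above background in the pool. The 5 plasma cell markers, of cells rich in ER, ran from -1.79 to 0.01 in IAT RSG 280 and from -1.54 to 0.33 in IAT S 280, and 2 and 4 of them fell. The 6 epithelial markers ran from -3.70 to -0.57 and the 7 skeletal muscle markers from -3.46 to 0.55 in IAT RSG 280, and 4 and 5 fell. In liver RSG 280 the hepatocyte markers ran from -0.37 to 0.30, the adipocyte markers from 1.02 to 1.94 and the brown adipocyte markers from 1.64 to 3.64. These adipocyte and brown adipocyte sums lay above the pool in every liver RSG 280 mouse. The fibroblast and epithelial sums there ran from -0.02 to 0.44 and from -0.05 to 0.48. Over the liver groups, treated mice had Ucp1 above background on 0 to 1 of 12 arrays, Lep on 0 and Adipoq on 3 to 6. The part of these shifts in the values of the members was not tested.

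Repeats show how much of the spread lies in the arrays. The labels list 6 technical repeats each for liver RSG 28 and liver S 28, without saying from which RNA, and the median SD over the members was 0.04 and 0.05 between these repeats, against 0.14 and 0.14 between the 6 mice. The spread between mice was the larger for 31 and 30 of 32 members.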

How the data were processed

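RNA of liver and inguinal adipose tissue of treated db/db mice (72 samples, 36 per tissue, each from 1 mouse) and 12 technical repeats of liver had been hybridised on 168 two-colour Agilent whole mouse genome arrays of 45018 spots, 2 arrays with exchanged dyes per sample, against a pool of 6 untreated mice of the tissue. The authors extracted the arrays with Feature Extraction 9.5, and the deposited values are log10 ratios of red over green after background and dye correction. The deposited intensity columns and quality flags (yes or no per spot) were used for brightness, background and saturation, and the deposited value table of log10 ratios, of which 80 of 84 columns followed their own arrays and 4 were left out, served as an alternative. Dyes were taken from the array names, and the paired arrays correlated at -0.941 to -0.619 before turning.

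Ratios were turned to treated over pool, converted to log2, averaged over spots and over the dye pair, and fitted per tissue with limma 3.58.1 in R 4.3.3 (36 mice, a mean per group, Benjamini-Hochberg over 26023 liver and 31429 IAT probes, 25528 for comparisons between tissues, threshold 0.05). A probe entered the fit if, in any group, 50% or more of the arrays flagged 1 of the channels as well above background. A gene was followed by its brightest probe. The number of arrays limits the precision. The labels do not pair mice between groups: of 90 pairs of samples with the same number, 44 in liver and 47 in IAT correlated above 0.1.

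Promoters came from RefSeq (GRCm38.p6) and were searched with Python 3.11.15. Scripts were tested on simulated data. Named were all 32 members and, from each other list, the 2 highest and 2 lowest genes at RSG 280 in each tissue that had passed at 0.05 and kept 1 sign over 6 of 6 mice, of which the text gives a part. 31 members were matched by gene name and Ppp1r15a by accession. The members, lists and tests were chosen with earlier results of these data known. Alternatives were each mouse left out, the value table, centring, normexp with an offset of 50 and loess, no filter, the median over probes, the study's thresholds (p under 0.001 and a fold of 1.3), and blocks for replicate number, scanning day and slide. The random blocks for slide and day were chosen after seeing the data.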

Additional observations from a re-analysis of the deposited data

Results flagged for a closer look

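Single mice stood apart from the other 5 of their group by Dixon's test in 34 of 384 groups of 6 values, in 19 mice, where chance gives about 5%. Mouse 2 of liver RSG 280 did so for 7 members, with Hspa5 at -0.686 (the others -0.161 to 0.0944), Dnajb9 at -0.225, Creld2 at -0.421, P4hb at -0.0746, Sel1l at 0.168, Atf3 at -0.672 and Asns at 0.472. Mouse 4 of IAT RSG 84 did so for 5, with Hyou1 at 0.109, P4hb at 0.154, Pdia6 at 0.226, Sec61b at 0.188 and Xbp1 at -0.0359. Mouse 5 of liver RSG 28 did so for Hsp90b1 at 0.087, Calr at 0.112 and Pdia4 at -0.187.

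The other liver values were Atf6 at -0.108 (RSG 280, mouse 1), Eif2ak3 at 0.479 (RSG 28, mouse 1), Ddit3 at 0.256 (S 28, mouse 1), Dnajc3 at 0.0974 and Pdia3 at 0.114 (S 84, mouse 1) and Herpud1 at -1.62 (S 280, mouse 6). In IAT they were Calr at -0.168 (RSG 28, mouse 3), Trib3 at 0.135 (RSG 84, mouse 1), Atf6 at -0.206 (RSG 280, mouse 1), Herpud1 at -0.207 and Chac1 at 1.07 (RSG 280, mouse 2) and Ppp1r15a at -0.434 (RSG 280, mouse 3). With S in IAT they were Pdia4 at -0.559 (S 28, mouse 1), Syvn1 at -0.076 (S 28, mouse 4), Sel1l at -0.73 and Ddit3 at 0.756 (S 84, mouse 1), Hyou1 at -0.251 (S 280, mouse 4), Ero1l at 0.644 (S 280, mouse 5) and Atf3 at -0.443 (S 280, mouse 2).

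By brightest probes, the effect differed between IAT and liver, by the test of that difference in limma, for 16 members at RSG 280. In this comparison the probes of Canx, Sel1l and Ssr3 were called in opposite directions with RSG, and those of Canx and Sel1l with S. IAT minus liver was 0.255 for Hyou1, 0.404 for Calr, -0.16 for Canx, 0.43 for Ero1l, -0.432 for Sel1l, -0.247 for Sec61b, -0.218 for Ssr3, 0.28 for Ern1, -0.526 for Xbp1, -0.319 for Atf6, -0.53 for Eif2ak3, 0.588 for Ddit3, -0.648 for Atf3, -0.381 for Trib3, -0.407 for Asns and -0.667 for Chac1. At S 280 the effect differed for 17 members, with 0.203 for Hspa5, 0.447 for Hyou1, 0.44 for Calr, -0.357 for Canx, 0.203 for Dnajb11, -0.366 for Creld2, 0.458 for Ero1l, 0.695 for Herpud1, -0.418 for Sel1l, -0.377 for Sec61b, 0.397 for Ern1, -0.27 for Atf6, -0.888 for Eif2ak3, 1.04 for Ddit3, -0.786 for Atf3, -1.15 for Asns and -0.846 for Chac1.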

How the results depend on the processing

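Of 295 calls of members over the comparisons, 285 were kept with the deposited table, 277 with each array centred, 288 without the filter, 285 with normexp and loess and 279 with the slide as a random block, with 0 reversed in these. 238 were kept whichever mouse was left out. The threshold of 0.05, the single pool and 6 mice a group limit what was seen, as does the signal over background in liver (1.80).

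With the median over probes, 240 of 295 calls were kept and 24 changed sign. The values that changed sign, or lay on the other side of 0 without a call, were in IAT RSG 28 Hsp90b1 0.17, Calr 0.33, Canx 0.0069 and Ssr3 0.055, in IAT RSG 84 Hsp90b1 0.11, Canx 0.085, Pdia6 0.15 and Ssr3 0.038, and in IAT RSG 280 Hsp90b1 0.11, Calr 0.32, Canx 0.14 and Pdia6 0.14. In IAT S 28 they were Hsp90b1 0.18 and Canx 0.031, in IAT S 84 Hsp90b1 0.19, Hyou1 0.046, Canx 0.082 and Sel1l 0.029, and in IAT S 280 Hsp90b1 0.015, Calr 0.28, Canx 0.10, Pdia6 0.021 and Sel1l 0.019. In liver they were Calr 0.0018 at RSG 28, Edem1 -0.12 and Atf6 -0.022 at RSG 84, Atf6 -0.068 at RSG 280 and Atf6 -0.015 at S 84. Between doses in IAT they were Canx 0.13 for RSG and Canx 0.071 and Edem1 0.26 for S, and between IAT and liver Canx 0.31 and Sel1l 0.088 for RSG and Canx 0.24 and Sel1l 0.34 for S. For RSG against S in IAT at 84 µmol/kg 1 member was called, where 2 had been.

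With the scanning day as a block, 9 members were called in liver RSG 28 (15 without the block), 8 in liver RSG 84 (18 without it, 7 of them shared), 9 in liver S 28 (18), 4 in IAT RSG 28 (17), 9 in IAT S 84 (15), 4 between S 280 and 28 in liver (7, 3 shared), 2 between RSG 280 and 28 in IAT (7, 1 shared), 2 for RSG against S in liver at 280 µmol/kg (6, 1 shared) and 0 in IAT at 84 µmol/kg (2). The signs turned for Eif2ak3 in liver RSG 28 (-0.050), Sdf2l1 in liver RSG 84 (0.63), P4hb (0.046) and Sel1l (0.064) in liver S 28, Dnajc3 (-0.015) and Ppp1r15a (0.078) in IAT RSG 28 and Atf4 in IAT S 84 (0.0071). The cause was not tested. This block could not be fitted for IAT S 280, where day and group cannot be told apart, and with the day as a random block 60 of 60 calls were kept there and 1 member was called for RSG against S in IAT at 280 µmol/kg, where 0 had been. With the slide as a random block 0 members were called for RSG against S in IAT at 84 µmol/kg.

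With the replicate number as a block, 295 of 295 calls were kept, and 1 member was called between RSG 280 and 28 in liver and 1 for RSG against S in liver at 28 µmol/kg, where 0 had been. The numbers did not pair the samples. With centring, 1 member was called for RSG against S in liver at 28 µmol/kg, where 0 had been. Leaving out each mouse gave 0 to 6 members for RSG against S in IAT at 84 µmol/kg and 0 to 1 at 280 µmol/kg.

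With the study's thresholds, 6, 5 and 6 members were called over the doses of RSG in liver, 5, 6 and 8 over those of S in liver, 2, 5 and 8 over those of RSG in IAT and 1, 4 and 9 over those of S in IAT. Between 280 and 28 µmol/kg they were 2 for S in liver, 1 for RSG in IAT and 4 for S in IAT. For RSG against S they were 3 in liver at 280 µmol/kg and 0 in IAT at 84 µmol/kg, and between IAT and liver 6 for RSG and 10 for S. These thresholds ask for more than the adjusted p.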
